A study of Homo sapiens with 8 samples.

Results

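The peaks described here lie at the downstream ends of protein-coding genes, where "downstream" was read on the strand of the peak. A peak was a member when it met the 500 bp either side of the end bound of a RefSeq coding gene (for + strand peaks) or of its start bound (for − strand peaks), and met no window of that size at an upstream bound. In METTL3 knockout cells 358 of 23937 peaks qualified (1.496%, exact Clopper-Pearson 95% interval 1.35 to 1.66), against 464 of 29084 peaks in wild type (1.60%, 1.45 to 1.75), which makes 822 of 53021 peaks in all. The same rule at upstream ends took 363 knockout peaks (1.52%) and 522 wild-type peaks (1.79%). The rule used positions only, and no fold, read count or sharing.

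The study measured N6-methyladenosine (m6A) in chromosome-associated RNA of HEK293T cells, a long-established line from human embryonic kidney, with METTL3 knocked out or in its parental, wild-type form. Each genotype had 2 libraries from RNA pulled down with an m6A antibody (IP) and 2 libraries from input RNA, so that the 8 samples form the groups METTL3 knockout IP, METTL3 knockout input, wild-type IP and wild-type input. The data are 1 stranded peak list per genotype, with the build named as hg38, and they hold no value per replicate. Which part of METTL3 was deleted and whether the knockout is 1 clone are not given in the sources used here, and a HAT1 knockdown named in the study's design is not analysed here.

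METTL3 carries the catalytic site of the m6A writer complex, which acts on nascent RNA and in which WTAP is another core subunit. In messenger RNA the mark is known to be dense around stop codons and in 3′ untranslated regions, toward the downstream bound of a gene. Positions of exons, stop codons and untranslated regions were not at hand, so no peak was placed in them, and a stop codon can lie outside the window. RNA that stays on chromatin also holds introns, transcripts that run past the polyadenylation site and short transcripts that leave promoters on the opposite strand. METTL3 itself (chr14:21498138-21511340) carried 0 peaks in the knockout list and 2 in the wild-type list, and no peak of either list met its downstream bound. Peak lists hold no expression levels, so the cell line's name was not checked against marker genes.

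The name "downstream end" covered 2 kinds of place, which was seen once the peaks were set against the strand of the gene. RefSeq promoters gave a strand for 15843 of 20056 coding genes. Among members at such genes, 195 of 296 in the knockout lay on the strand of the gene (65.9%, 60.2 to 71.3), against 255 of 383 in wild type (66.6%, 61.6 to 71.3). These are 3′-end peaks. The other 101 knockout and 128 wild-type members lay on the strand opposite to the gene, where the bound that is downstream for the peak is the start of the gene. They are called antisense start peaks below. For comparison, of all peaks inside exactly 1 coding gene with a listed strand, 93.0% in the knockout (13771 of 14814) and 93.5% in wild type (17172 of 18366) lay on the strand of that gene. The sets are unlike, since members could also lie outside the gene or inside another coding gene. The gap between these shares is therefore no measure of the members alone. A further 62 knockout and 81 wild-type members were at genes without a listed strand. All intervals cover counting error only.

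Reference sequence was at hand for gene starts only. The 4 promoters met by antisense start peaks that follow are each given as the 250 bases before the gene's start, 5′ to 3′ on the strand of the peak (RefSeq, GRCh38.p14). They were chosen to show a peak found in the knockout list alone, a promoter with adjoining peaks in the 2 lists, and 2 promoters with shared peaks. Capitals mark GGACT, a common core of the m6A consensus.
ATP13A1, chr19:19663677-19663926, + strand: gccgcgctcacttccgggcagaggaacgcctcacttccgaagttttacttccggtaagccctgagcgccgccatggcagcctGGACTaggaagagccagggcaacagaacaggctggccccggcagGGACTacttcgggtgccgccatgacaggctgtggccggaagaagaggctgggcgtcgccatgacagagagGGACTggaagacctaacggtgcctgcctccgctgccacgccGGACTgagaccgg
SRSF1, chr17:58007247-58007496, + strand: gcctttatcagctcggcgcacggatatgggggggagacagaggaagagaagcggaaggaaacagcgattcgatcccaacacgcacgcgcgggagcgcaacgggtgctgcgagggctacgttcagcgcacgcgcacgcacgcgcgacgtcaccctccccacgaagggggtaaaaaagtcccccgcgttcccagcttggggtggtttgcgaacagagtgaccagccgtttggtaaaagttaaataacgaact
DDX41, chr5:177516962-177517211, + strand: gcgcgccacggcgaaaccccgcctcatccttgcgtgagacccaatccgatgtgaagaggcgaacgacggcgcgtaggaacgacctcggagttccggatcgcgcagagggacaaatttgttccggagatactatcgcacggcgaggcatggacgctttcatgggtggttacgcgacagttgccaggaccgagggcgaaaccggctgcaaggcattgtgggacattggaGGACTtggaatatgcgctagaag
MSL1, chr17:40121721-40121970, − strand: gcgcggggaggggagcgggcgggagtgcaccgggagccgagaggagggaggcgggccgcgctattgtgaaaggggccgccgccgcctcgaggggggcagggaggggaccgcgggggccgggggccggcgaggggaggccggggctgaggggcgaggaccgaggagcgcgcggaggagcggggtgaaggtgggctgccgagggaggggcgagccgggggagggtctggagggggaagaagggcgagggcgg
The ATP13A1 stretch holds 4 matches, the DDX41 stretch 1, and the SRSF1 and MSL1 stretches 0. No other promoter that antisense start peaks met holds as many as ATP13A1, so it is not typical of knockout-only peaks. The knockout peak at ATP13A1, which encodes a P-type ATPase of the endoplasmic reticulum, covered 227 of these bases and had no partner in wild type. At SRSF1, a splicing factor, the knockout peak ended 11 bp inside the gene's start bound and the wild-type peak covered 249 of the bases before it, so the peaks were neighbours that did not overlap. GGACT was found in 28 of 91 promoters that antisense start peaks met (30.8%), read over 300 bases on the strand of the peak, against 4904 of 22199 coding promoters on the strand opposite to the gene (22.1%). On the gene's own strand the shares were 20.9% (19 of 91) and 21.8% (4831 of 22199). A promoter counted as met at any overlap, down to 2 bases at FEM1B, so a match need not lie under the peak. Some genes, such as ARHGAP12, gave more than 1 promoter. These shares describe letters in a window and were not tested.

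The 3′-end peaks lay mostly inside the gene, before its bound. In the knockout 147 of 195 had their summit at or before the bound and 48 past it (24.6%, 18.7 to 31.3). In wild type 184 of 255 lay at or before it and 71 past it (27.8%, 22.4 to 33.8). The median summit stood 359 bp before the bound in the knockout (distance −359 bp, quartiles −504.5 and −32) and 332 bp before it in wild type (−332 bp, quartiles −483 and 100). Both lists had few summits in the last 100 bp of the gene, with 4 of 195 in the knockout and 3 of 255 in wild type. Between 300 and 400 bp before the bound there were 39 in the knockout and 29 in wild type. Peaks over the bound itself were likewise few, since 13 knockout and 19 wild-type 3′-end peaks spanned it, while 141 knockout and 179 wild-type peaks lay wholly before it and 41 knockout and 57 wild-type peaks wholly past it.

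Antisense start peaks had the opposite lean. Their summits lay past the bound, outside the gene and upstream of its start, in 70 of 101 knockout peaks (69.3%, 59.3 to 78.1) and in 90 of 128 wild-type peaks (70.3%, 61.6 to 78.1). The median summit was 173 bp past the start bound in the knockout (quartiles −120 and 365) and 238 bp past it in wild type (quartiles −52.75 and 452). Over all members together these leans partly cancelled: 38.8% of knockout and 40.7% of wild-type members had the summit past the bound.

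**Figure D1:**
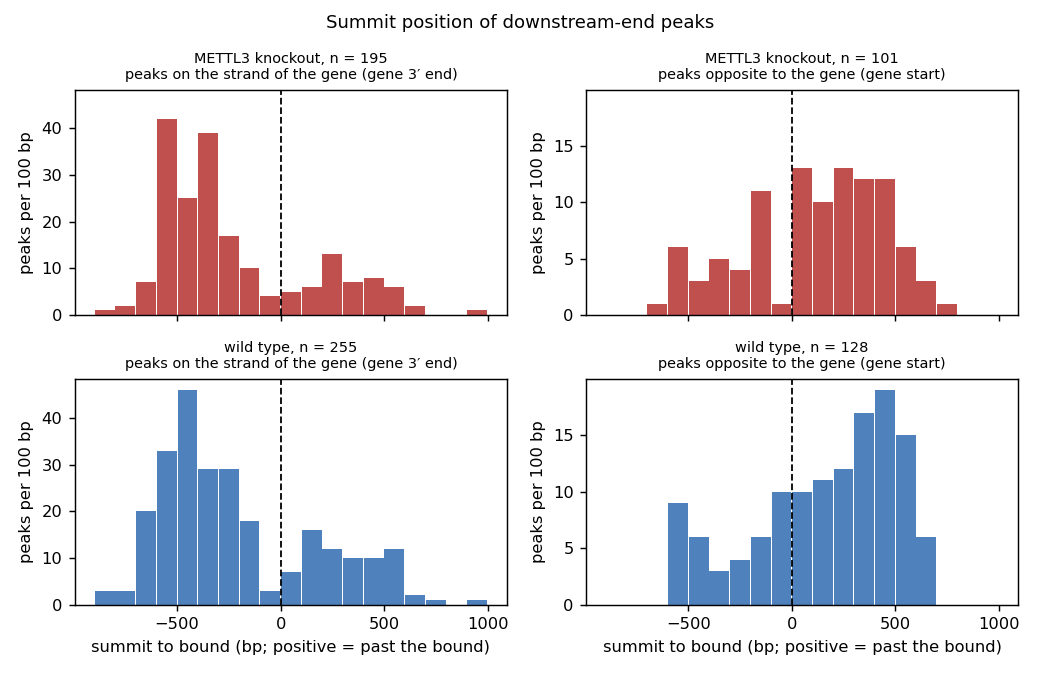
Number of member peaks per 100 bp by distance of the summit from the gene bound in bp, with the METTL3 knockout above wild type, 3′-end peaks on the left and antisense start peaks on the right. The dashed line is the bound, and 3′-end summits stand mostly to its left (147 of 195 and 184 of 255) while antisense start summits stand mostly to its right (70 of 101 and 90 of 128).

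A view beyond the window shows how the members sit among their neighbours. Over 11573 coding genes of at least 10000 bp with a listed strand, all summits within 5000 bp of a bound were counted in steps of 500 bp. On the strand of the gene, knockout summits stood at 11.1 per 1000 genes between 1000 and 500 bp before the bound, 7.09 in the last 500 bp, 3.11 in the first 500 bp past it and 3.97 in the next 500 bp. Wild-type summits stood at 13.6, 9.50, 4.23 and 5.10 over the same steps. The density was thus lower past the bound than before it. From 500 to 5000 bp past the bound it averaged 3.98 per 1000 genes in each step in the knockout and 5.22 in wild type. From 5000 to 500 bp before the bound it averaged 10.5 in the knockout and 11.96 in wild type. The last 500 bp thus held fewer summits than the average step further in. Those inner steps were not level. In the knockout they ran from 8.55 per 1000 genes (4000 to 3500 bp before the bound) to 11.9 (2000 to 1500 bp before). In wild type they ran from 9.16 (5000 to 4500 bp before), which is below the last 500 bp, to 14.8 (2000 to 1500 bp before). The highest step thus stood inside the gene, and no rise was seen in the steps next to the 3′ bound. On the opposite strand around gene starts the first 500 bp outside the gene held the most, 5.96 per 1000 genes in the knockout and 7.86 in wild type. Inside the gene, from 5000 to 500 bp before the bound, the opposite strand averaged 0.691 in the knockout and 0.662 in wild type. The wild-type list holds more peaks, so the heights of the lists cannot be compared.

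**Figure D2:**
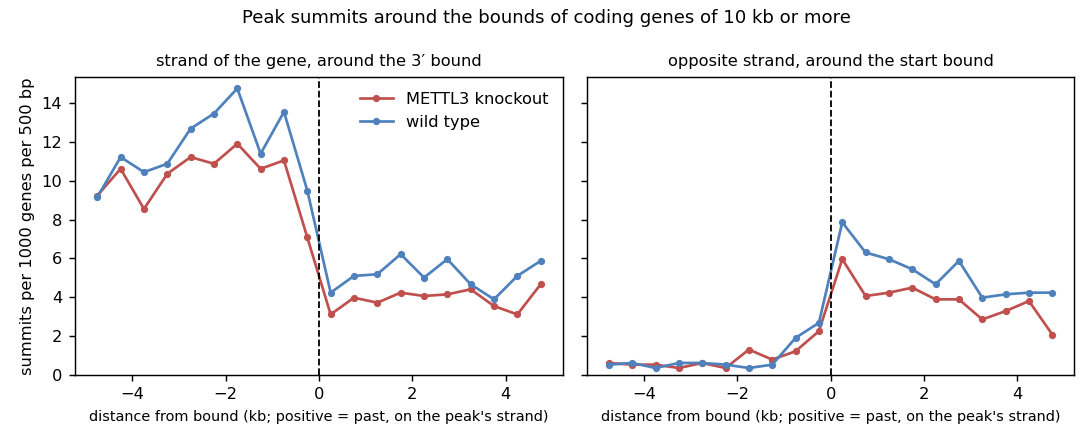
Peak summits per 1000 coding genes in steps of 500 bp, against distance from the bound in kb, for the METTL3 knockout (red) and wild type (blue), on the strand of the gene around its 3′ bound (left) and on the opposite strand around its start (right). Densities inside the gene are the higher ones on the left, and on the right the highest point is the first step outside the gene, at 5.96 and 7.86.

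The authors' fold of each peak over its local input was much the same in members as in their whole list. The median fold was 7.06 for members (quartiles 5.83 and 8.79) and 7.06 for all knockout peaks, and 7.25 for members (5.79 and 8.86) against 7.29 for all wild-type peaks. Folds run on a scale of their own in each list and are compared only within it. Reads at the summit, recovered from the fold and p of each peak, had a median of 30 in knockout members (range 9 to 291) and 24 in wild-type members, the same as over each whole list. Antisense start peaks rested on fewer reads than 3′-end peaks, with a median of 22 against 37 in the knockout and 17 against 28 in wild type. Library totals were not used here, and in bulk RNA fewer cells with a transcript and less of it per cell cannot be told apart.

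**Figure D3:**
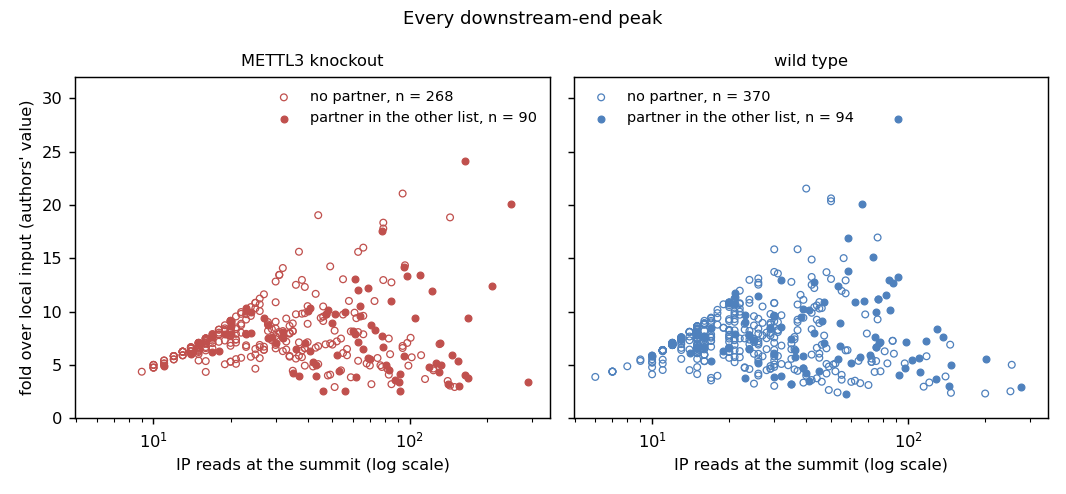
Each of the 358 METTL3 knockout (left) and 464 wild-type (right) member peaks by IP reads at its summit (log axis) and by its fold over local input, filled where it is shared with the other list. Filled points gather at high read counts, and high folds occur both with and without a partner.

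Sharing between the genotypes was close to that of the lists as a whole. Sharing needed an overlap of 1 bp or more with a same-strand peak of the other genotype, which held for 24.8% of all knockout peaks and 20.4% of all wild-type peaks. Among members it held for 90 of 358 in the knockout (25.1%, 20.7 to 29.97) and 94 of 464 in wild type (20.3%, 16.7 to 24.2). A share this near to that of the list is no result about the members. Peaks at upstream ends, chosen in the same way, were shared in 30.03% (25.4 to 35.03) of knockout and 21.3% (17.8 to 25.03) of wild-type cases.

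Within the members, 3′-end peaks were shared in 27.2% (53 of 195, 21.1 to 34.0) of knockout and 22.4% (57 of 255, 17.4 to 28.0) of wild-type cases, and antisense start peaks in 23.8% (24 of 101, 15.9 to 33.3) of knockout and 19.5% (25 of 128, 13.1 to 27.5) of wild-type cases. The 3′-end peaks before the bound had a partner in 29.9% of knockout cases (44 of 147, 22.7 to 38.0) and 25% of wild-type cases (46 of 184, 18.9 to 31.9). Those past the bound had one in 18.75% of knockout cases (9 of 48, 8.95 to 32.6) and 15.5% of wild-type cases (11 of 71, 8.0 to 26.0). These intervals overlap, and the reads moved with the difference: peaks before the bound had a median of 39 reads in the knockout and 29 in wild type, and peaks past it 26 in the knockout and 24 in wild type. Their part in the difference was not tested.

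**Figure D4:**
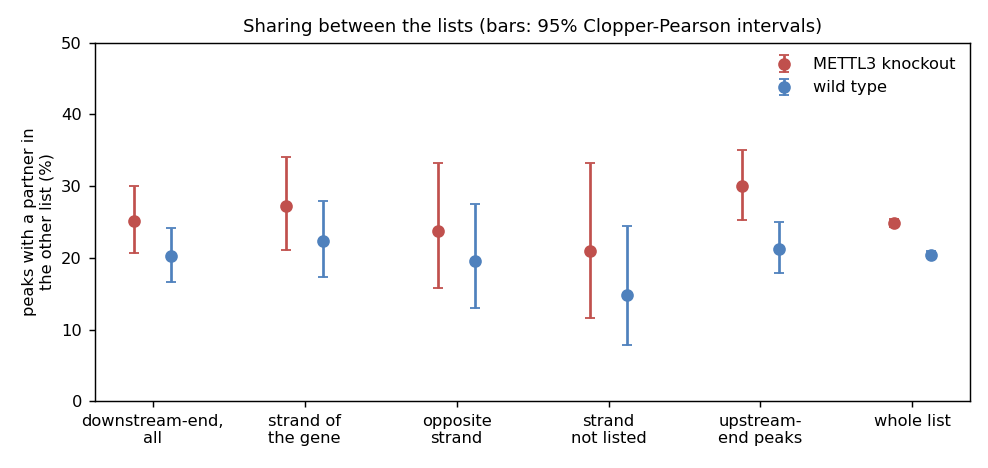
Share of peaks with a partner in the other list, in percent, for the METTL3 knockout (left point of each pair) and wild type (right point), with 95% Clopper-Pearson intervals. Member classes lie between 14.8% and 27.2%, around the whole-list shares of 24.8% and 20.4%.

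Read support went with sharing among the members as it did in the lists. In the knockout, members were shared in 5.0% of cases with up to 15 reads at the summit, 15.7% with 16 to 30, 25.3% with 31 to 60 and 52.3% above 60. The whole knockout list gave 5.76%, 13.5%, 27.3% and 55.4%. Wild-type members gave 5.98%, 13.3%, 27.9% and 54.0%, beside 5.53%, 12.3%, 28.2% and 56.4% in the whole list. Each whole-list value lay inside the interval of its members. Members without a partner thus include many that rest on few reads.

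**Figure D5:**
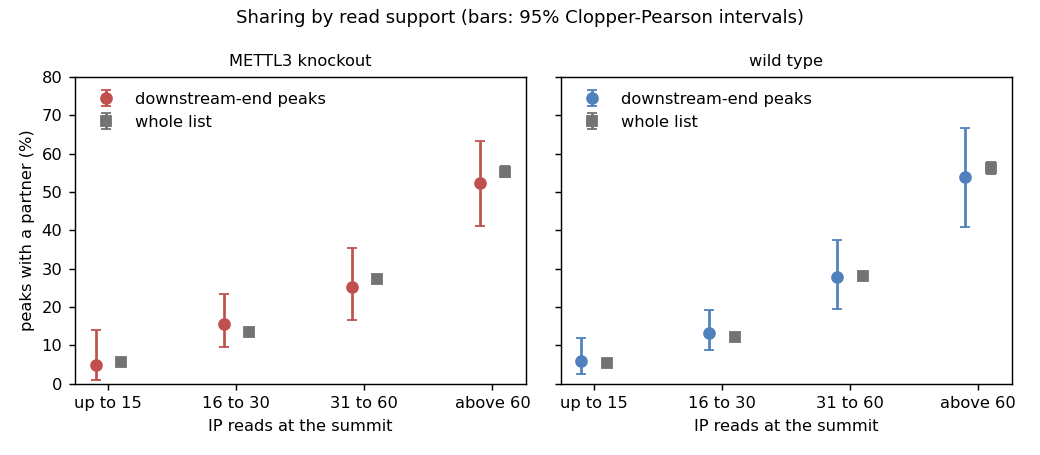
Share of peaks with a partner in the other list, in percent, by IP reads at the summit, for downstream-end peaks (coloured circles) and the whole list (grey squares), with the METTL3 knockout on the left and wild type on the right and 95% Clopper-Pearson intervals. Member shares run from 5.0% to 52.3% in the knockout and from 5.98% to 54.0% in wild type, and the whole-list values lie inside their intervals.

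There were 88 pairs in which each peak was a downstream-end peak, 52 of them at 3′ ends, 24 at antisense starts and 12 at genes without a listed strand. The median gap between the 2 summits was 33.5 bp, 52 of 88 pairs lay within 50 bp (59.1%) and 17 within 10 bp (19.3%). Over all 5947 wild-type peaks with a partner the median gap was 29 bp, and 64.7% lay within 50 bp and 27.1% within 10 bp. Pairs were chosen by overlap, which by itself limits the gap and the side of the bound, so neither is a result about the members. In 87 of 88 pairs both summits were on the same side of the bound. The exception was at WTAP, described below.

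Among shared 3′-end peaks, the 8 highest wild-type folds at a single gene were at PBDC1, MRPL32, TTC23L, FAM156B, EIF4G1, EMC10, HNRNPCL1 and YBX3. Ranking by wild-type fold by itself favours pairs that are higher in wild type, so their folds show no lean between genotypes. Other shared pairs, such as RBBP6, had the higher fold in the knockout. PBDC1 had a fold of 5.92 on 146 reads in the knockout and 28.1 on 91 reads in wild type, with summits 591 bp before the bound in the knockout and 664 bp in wild type. MRPL32, a protein of the large mitochondrial ribosomal subunit, had 7.68 on 78 reads in the knockout and 20.1 on 66 reads in wild type, and both summits were at the same base, 454 bp before the bound. EIF4G1, the scaffold of the cap-binding initiation complex, had 13.3 on 98 reads in the knockout and 12.99 on 84 reads in wild type, with summits 498 bp before the bound in the knockout and 496 bp in wild type. Peaks at these places were thus called in both genotypes, with METTL3 knocked out and without.

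YBX3, a cold-shock RNA-binding protein, had 9.39 on 105 reads in the knockout and 12.4 on 53 reads in wild type, 547 bp before the bound in the knockout and 574 bp in wild type. TTC23L had 12 in the knockout and 16.9 in wild type, and its peaks also lie inside BRIX1, a ribosome assembly factor on the same strand. EMC10, a subunit of the endoplasmic reticulum membrane protein complex, was the farthest member past the bound in the knockout, with its summit 997 bp past the bound in the knockout and 714 bp past it in wild type, at folds of 9.94 in the knockout and 12.9 in wild type. FAM156B (3.84 in the knockout peak that overlaps, 15.1 in wild type) and HNRNPCL1 (7.07 in the knockout and 12.8 in wild type) also belong to this group, and both have close copies in the genome, so that reads could be placed at the wrong copy.

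The most reads of any member were at ATF4, a transcription factor of the integrated stress response, in both lists (singled out after its values were seen). Its peak had 291 reads at a fold of 3.43 in the knockout and 275 reads at a fold of 2.89 in wild type, with summits 264 bp before the bound in the knockout and 265 bp in wild type. The local input was high there, with a scaled signal of 40.0 in the knockout and 57.0 in wild type. RBBP6, a ubiquitin ligase tied to the cleavage and polyadenylation machinery, had the longest member, 1123 bp in the knockout on 250 reads at a fold of 20.1, and a 487 bp peak on 147 reads at a fold of 5.01 in wild type. The RBBP6 summits were 635 bp before the bound in the knockout and 634 bp in wild type.

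Other peaks stood out by length or by distance past the bound. EXO1, an exonuclease of DNA repair, had the longest wild-type member, 1079 bp, with its summit 994 bp past the bound at a fold of 7.02 on 77 reads, and a knockout peak that is no member overlapped it at 3.02 on 90 reads. CWC22, a spliceosome factor, had shared peaks of 529 bp in the knockout and 569 bp in wild type, with summits 820 bp before the bound in the knockout and 821 bp in wild type. MSTO1, a mitochondrial protein with a close pseudogene copy, had 816 bp in the knockout and 439 bp in wild type. PWP2, a ribosome assembly factor, had a wild-type peak of 607 bp on 46 reads without a partner. Among antisense start peaks, ARHGAP11B had the summit farthest past the bound in the knockout, 769 bp upstream of its start, inside ARHGAP11B-DT. ACAD9, an assembly factor of respiratory complex I, had shared summits 654 bp upstream of its start in the knockout and 680 bp in wild type, at folds of 8.24 on 73 reads in the knockout and 9.10 on 46 reads in wild type.

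Knockout peaks at 3′ ends without a wild-type partner were led by RP9, a gene of retinitis pigmentosa, with a fold of 21.1 on 94 reads and its summit 550 bp before the bound. HERC3, a ubiquitin ligase of the HECT class, followed at 19.0 on 44 reads and with a 721 bp peak whose summit was 624 bp past the bound. TVP23C, a Golgi membrane protein, had 18.8 on 144 reads. WDR75, a factor of ribosomal RNA processing, had 16 on 66 reads, and SMIM45 had 15.6 on 63 reads. RBM27, an RNA-binding protein, had 15.6 on 37 reads with its summit 392 bp past the bound, but that place and the TVP23C peak also lie in read-through genes annotated on the same strand (RBM27-POU4F3 and TVP23C-CDRT4). U2AF1, which reads the 3′ splice site, had 18.3 on 79 reads, and its near-identical copy LOC102724594 had 17.8 on 79 reads, each 323 bp before the bound, so the copies cannot be told apart.

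Wild-type peaks at the 3′ end of a single gene without a knockout partner were led by AHSA1, a co-chaperone of HSP90, with a fold of 20.4 on 50 reads and its summit 387 bp before the bound. A peak at the shared bound of TMEFF1 and its read-through form MSANTD3-TMEFF1 had 20.6 on 50 reads, inside CAVIN4. LRRC37A followed at 16.95 on 76 reads and belongs to a family of close copies. OGDHL, a relative of oxoglutarate dehydrogenase, had 15.02 on 56 reads, and the zinc finger genes ZNF17 and ZNF222 had 13.7 on 48 reads and 13.1 on 26 reads. IP6K2, an inositol phosphate kinase, had 12.9 on 57 reads, and LRP5, a Wnt co-receptor, had 12.8 on 35 reads. GALNT13, which starts O-glycosylation, had 12.97 on 24 reads with its summit 236 bp past the bound. These 8 single-gene peaks had between 24 and 76 reads.

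Antisense start peaks often lay in another annotated gene of their own strand. In the knockout 35 of 101 lay in a long non-coding RNA (34.7%, 25.5 to 44.8) and 26 in another coding gene (25.7%, 17.6 to 35.4). In wild type 31 of 128 lay in a long non-coding RNA (24.2%, 17.1 to 32.6) and 36 in another coding gene (28.1%, 20.5 to 36.8). Of those in long non-coding RNAs, 5 knockout and 11 wild-type peaks were in one named as a divergent transcript (-DT) and 16 knockout and 11 wild-type peaks in one named as antisense (-AS). Of the 3′-end peaks, 3 in the knockout and 4 in wild type lay in a long non-coding RNA of their strand. Some 3′-end peaks also lay in another gene of their strand, as at TTC23L and RBM27 above, and these are not counted here. In 36 knockout and 49 wild-type antisense start peaks the table lists no long non-coding RNA and no other coding gene on either strand.

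The highest antisense start fold in the knockout was at the start of ADAMTS13, a plasma protease, with 24.1 on 165 reads in the knockout and 4.30 on 111 reads in wild type, and the peak also lies inside REXO4 on the peak's strand. MSL1, the scaffold of a histone acetyltransferase complex, had 17.6 on 78 reads in the knockout and 12.7 on 87 reads in wild type, with summits 244 bp upstream of its start in the knockout and 142 bp in wild type, inside a non-coding RNA. ATP13A1 had 14.1 on 32 reads in the knockout. KRT10, a keratin, and PSMD10, a proteasome assembly factor, each had 13.4 on 31 reads in the knockout, the first inside KRT10-AS1 and the second inside ATG4A. These peaks thus differ in what else is annotated beneath them.

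In wild type the highest antisense start folds were at STAP2, a signalling adaptor (21.5 on 40 reads), and GIPR, an incretin receptor (15.8 on 30 reads). LYRM4, a factor of iron-sulphur cluster assembly, had 13.6 on 31 reads in a peak that lies inside FARS2. MED16, a Mediator subunit, had 13.2 on 42 reads, 292 bp upstream of its start. AMD1, an enzyme of polyamine synthesis, had 3.59 on 88 reads in the knockout and 13.3 on 91 reads in wild type, in a peak that also lies inside CDK19. DDX41, a DEAD-box RNA helicase whose promoter is printed above, had 10.1 on 40 reads in the knockout and 7.78 on 24 reads in wild type.

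The members fell in 715 coding genes, of which 94 had one in both lists, 257 in knockout cells alone and 364 in wild type alone. These counts are of members, not of shared peaks. At EXO1, ZBTB11, SLC25A28 and ZNF19, counted in wild type alone, a knockout peak not counted at the gene overlapped the member. At MRPL55, HNRNPA3 and IPMK, counted in both lists, the members did not overlap. Counted over whole gene bodies, which are far longer than the window, 9592 coding genes had a peak, 5337 of them in both lists, 1649 in knockout cells alone and 2606 in wild type alone. The median gene length was 24311 bp for genes with a member, against 49648 bp for coding genes with any peak in their body and 24092.5 bp for all coding genes. Among genes with a 3′-end peak before the bound, it was the only peak on the gene's strand in 68 of 147 knockout and 87 of 184 wild-type genes. Where the gene had other peaks, the end peak had a fold above their median in 41 of 79 knockout and 47 of 97 wild-type genes. There were 11 genes with 3 or more members over both lists. At ARV1, PIGL and ZNF79 an own-strand peak before the bound was accompanied by one past it: the ARV1 pair was 454 bp before and 503 bp past the bound in the knockout, and the PIGL pair 482 bp before and 115 bp past it in wild type. At E4F1, P3H3, RAB40C, OVCA2, UBXN7 and ADAMTS13 the members were at both ends of the gene. This also held for ZNF79, which had a wild-type antisense start peak with its summit 402 bp upstream of its start. At MYO9A and OARD1 they were antisense start peaks that also lay inside SENP8 and NFYA on the peaks' strand. A wild-type OARD1 peak had its summit 159 bp before the bound, within OARD1 itself.

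Over all coding genes 715 of 20056 (3.57%) had a member, and the 9 gene lists set beside them ranged from 0 of 47 replication-dependent histone genes to 2 of 12 m6A writers (16.7%). Both writers carried theirs antisense at the start. WTAP had one in both lists, at a fold of 3.91 on 37 reads in the knockout and 4.46 on 45 reads in wild type, with the summit 74 bp past the start bound in the knockout and 34 bp before it in wild type, and these peaks also lie inside SOD2. METTL16, which methylates the U6 small nuclear RNA, had one in the knockout at 7.47 on 16 reads. None of 15 m6A readers and erasers had a member. Of 23 cleavage and polyadenylation genes RBBP6 and CPSF2 had one (8.70%), the CPSF2 peak in the knockout alone at 8.27 on 20 reads, with its summit 120 bp past the bound.

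Of 64 histone-modifying enzymes 2 had a 3′-end peak: EHMT2, an H3K9 methyltransferase, in the knockout alone (6.49 on 57 reads) and KAT5, an acetyltransferase, in wild type alone (6.99 on 35 reads). Of 34 short-lived transcripts 3 had a member, at genes without a listed strand. ZFP36L2, an RNA decay factor, had 4.53 on 83 reads in the knockout and 3.18 on 35 reads in wild type. MCL1, a survival factor, had 5.82 on 12 reads in the knockout alone and CCND1, cyclin D1, had 3.54 on 17 reads in wild type alone. No replication-dependent histone gene of 47 had one.

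Genes listed as ribosomal proteins had a member in 7 of 86 cases (8.14%), 2 in the knockout alone and 5 in wild type alone. At 3′ ends there were 3, all in wild type alone (RPS27A, RPS18 and RPL7L1, the last named as RPL7-like). Another 3 had theirs antisense at the start (RPL15, RPS21 and RPL24). The remaining gene, RPL30, had no listed strand and had its peak in the knockout alone. RPL15 had a fold of 9.24 on 37 reads in wild type, in a peak that also lies inside NKIRAS1, and RPS27A had 7.50 on 28 reads. Of 89 nuclear genes of oxidative phosphorylation UQCRH alone had one, in wild type, at 6.36 on 21 reads. Genes with a ZNF symbol had a member in 35 of 518 cases (6.76%), 4 in both lists, 9 in the knockout alone and 22 in wild type alone. Beside these splits, all coding genes had 94 in both lists, 257 in the knockout alone and 364 in wild type alone, and the wild-type list holds more peaks. The 22 include ZNF19, where a knockout peak not counted at the gene overlapped the wild-type member. The highest ZNF fold was 14.2 on 49 reads at ZNF700, in the knockout alone, in a 657 bp peak that also lies inside ZNF69. The 4 genes in both lists were ZNF35, ZNF79, ZNF839 and ZNF768, and in each the shared peaks were on the strand of the gene and before its bound. At ZNF768 the folds were 4.07 on 165 reads in the knockout and 5.55 on 202 reads in wild type, with summits 3 bp apart. None of these counts was tested.

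Genes with close copies were among the shared members. NPIPA genes, a family of near-identical copies on chromosome 16, had 7 members before the bound in 7 genes in each list, and 6 of 7 had a partner in the other list. Their summits lay 466 to 354 bp before the bound in the knockout (distances −466 to −354 bp) and 460 to 315 bp before it in wild type (−460 to −315 bp), with folds from 3.84 to 13.4 in the knockout and from 3.49 to 11.2 in wild type. Reads of such copies cannot be assigned with certainty, so the 7 genes are not 7 independent sites. HSPA1A, a heat shock protein with a near-identical neighbour, had a wild-type peak on 254 reads with no partner, and the mitochondrial gene CYTB had the single member on that chromosome, in wild type.

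The width of the window set how many peaks were members. With 450 bp in place of 500 bp, 34 knockout and 47 wild-type members left, and with 550 bp 32 knockout and 40 wild-type peaks entered. A further 103 knockout and 153 wild-type peaks met both a downstream and an upstream window and were left out by the rule.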

How the data were processed

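Chromosome-associated RNA of METTL3 knockout and wild-type HEK293T cells was immunoprecipitated for m6A, with 2 IP and 2 input libraries per genotype, per the labels. MACS2 2.2.7.1, HISAT2 2.2.1, SAMtools 1.15.1 and the build hg38 are listed in the submitters' processing notes. How replicates were pooled and the calling threshold are not given in the sources used here. The deposited lists give each peak's fold, a linear ratio to local input, made by the authors. They also give −log10 of p and of q per peak, as deposited by the authors (p-value and q-value). Their lowest −log10 q is 2.02 in the knockout list and 2.01 in the wild-type list. The deposited score column repeats these for display and was not used.

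Bounds and strand came from RefSeq (GRCh38.p14), with 20056 coding genes. IP reads at a summit were solved from fold and p as whole multiples of 1 read (tolerance 0.005), which worked for at least 99.97% of peaks in each list and strand, and the procedure was tested on simulated data. Scripts used Python 3.11.15, pandas 2.3.3, SciPy 1.17.1, numpy 2.4.6 and matplotlib 3.10.9. With 1 list per genotype no test over replicates exists, so shares carry exact Clopper-Pearson 95% intervals. Genes were named as the 8 of highest fold among shared, knockout-only and wild-type-only 3′-end peaks, the 5 of highest fold on the opposite strand, longest and farthest past, genes with 3 or more members, and list members (not all repeated in the text). The members and lists were chosen with earlier results of these data known. Alternatives varied the window, overlap, strand, list depth and upstream rule.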

Additional observations from a re-analysis of the deposited data

How the results depend on the processing

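Of the values recomputed under each alternative 78 moved by less than their interval, or by less than 1.5 times for counts of genes, and 42 moved by more and are given here (knockout value first, then wild type). A window of 200 bp gave 0.660% and 0.705% of the list, 47.5% and 49.8% with the summit past the bound, 54.4% of knockout members on the gene's strand, and 38 genes in both lists, 119 in the knockout alone and 171 in wild type alone. A window of 1000 bp gave 2.54% and 2.76% of the list, 71.6% and 72.7% on the gene's strand, and 167, 423 and 601 genes. Asking for the summit in the window gave 1.13% and 1.23% of the list. Keeping the stronger 50% of peaks by −log10 q gave median folds of 8.78 and 8.94 and 53, 123 and 174 genes, and equal numbers of peaks gave a wild-type median fold of 7.73. Keeping peaks at upstream windows gave 1.93% and 2.12% of the list, 44.5% and 45.5% past the bound, and 59.5% and 60.3% on the gene's strand. Taking the strand of the gene only gave 0.815% and 0.877% of the list, 24.6% and 27.8% past the bound, and 53, 142 and 202 genes. An alternative chosen after seeing the data left out peaks in another coding or long non-coding gene of their strand, and gave 1.153% and 1.30% of the list, 33.3% and 35.3% past the bound, and 81.6% and 79.3% on the gene's strand. These differences follow from which peaks each rule admits. Members of exactly 1 gene moved none of these values. A 50% reciprocal overlap bore on sharing only, and the gene counts could not change under it. With equal numbers of peaks the knockout list, the smaller, stayed whole. Its share of the list, summit position, strand share and median fold therefore could not change. The 78 values include these, which say nothing about robustness. Sharing stayed inside its counting-error interval under all of these alternatives. With equal numbers of peaks it was 21.5% in the knockout and 21.1% in wild type, beside 25.1% and 20.3% with the full lists. The gap between the lists was thus smaller at equal list size, and the part of list size was not tested.

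No paired analysis was possible because each genotype has 1 peak list with no value per replicate, and for the same reason none was left out in turn. Differences between the lists cannot be set against the spread between replicates. Sharing went with reads at the summit, and the part of reads or library depth in sharing was not tested. The strand of 4213 coding genes was not listed, and gene bounds do not say which 3′ end was used.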
